A study of Rattus norvegicus with 12 samples.

Results

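The comparison described here sets soy protein isolate alone against 17β-estradiol (E2) alone in the mammary gland of ovariectomized rats. It was made over all genes from the arrays titled Soy-pool1 to 3 and Estradiol-pool1 to 3, which are 6 of the 12 arrays of the series. Soy rats ate soy protein isolate, which contains isoflavones, and received vehicle. Estradiol rats received E2 from a mini-osmotic pump, and since the titles name soy where soy was fed with E2, they were read as casein-fed. The 6 other arrays are 3 of soy plus E2 and 3 of casein plus vehicle. All animals were female Sprague-Dawley rats, fed their diet from postnatal day 30 to day 64 and ovariectomized on day 50, so every group lacked ovarian estrogen. E2 or vehicle ran for the last 14 days, and each array held pooled RNA of abdominal gland pairs.

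Estradiol acts through nuclear estrogen receptors, which bind DNA and change transcription of target genes. In the mammary gland it induces the progesterone receptor in luminal cells, drives duct growth through epidermal growth factor receptor ligands such as amphiregulin, and acts with prolactin on the secretory cells that make milk proteins. Soy isoflavones are plant compounds that bind the same receptors more weakly than estradiol. The series was set up to compare both agents, singly and combined, by mammary gene expression. Soy against estradiol shows, gene by gene, where both single treatments left the gland at different transcript values.

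The deposited values are log2 values centred on 0 for each probe set over the 12 arrays. A value of 1 is therefore 1 log2 unit above the probe set's median over arrays, and no value tells whether a transcript is abundant or present. The labelled tissue could for that reason not be checked by marker level. One label calls the measurement hepatic while the source label names mammary gland, and the mean of 25 liver genes was 4.73 in casein pool 3 and between -0.26 and 0.19 on the other arrays. Estradiol pools 2 and 3 differed with an SD of 0.163 over 31099 probe sets, against 0.301 or more in the 65 other pairs of arrays, and were counted as 1 sample by their mean. That leaves n = 3 for soy and n = 2 for estradiol. The labels do not state whether the pools of a group came from different animals. A p-value here therefore measures variation among pools, which may be technical, and precision is limited by how few arrays there are.

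Soy alone and estradiol alone differed at 272 of 14218 genes (1.91%; limma, Benjamini-Hochberg adjusted p under 0.05 over all genes), and those genes are called below. With soy 203 were lower (1.43%) and 69 were higher (0.485%). With pool number as a block on 12 separate arrays 744 genes were called, 500 of them lower and 244 higher with soy, and they held all 272. That fit counts the near-identical estradiol pools as 2 samples. It also gives all 4 groups the same pool effects, though only soy and estradiol pools were taken to be paired. A block in soy and estradiol alone, with estradiol pools 2 and 3 averaged, gave 876 calls (235 of the 272). It was chosen after seeing the data, put pool 1 against pools 2 and 3 and left 2 residual degrees of freedom. Of the genes named below 8 gained a call there (Csn2, Ccnd1, Igf1, Igfbp3, Adipoq, Adrb3, Sfrp4, Gsta1) and 3 lost it (Mlip, Zfp26, Mthfd1l). Among the 272, the lower genes held the larger differences, with 40 over 4-fold and 74 between 2-fold and 4-fold. Among the higher genes 1 was over 4-fold and 27 were between 2-fold and 4-fold. Milk genes (Wap, Lpo, Fabp3, Csn3), hormone response genes (Areg, Pgr, Greb1) and luminal genes (Cd24, Gata3, Prom1) lay on the lower side. Mast cell genes (Mcpt1l1, Milr1, Hdc) and the vessel gene Cldn5 lay on the higher side. The median difference of all genes was -0.0005 log2 units.

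The number of calls rested on single arrays. It fell to 2 without estradiol pool 1, which leaves 1 estradiol sample, to 33 without soy pool 2, to 36 without soy pool 3 and to 90 without casein pool 1, which enters through the shared estimate of the spread. Leaving out soy pool 1 gave 479 calls, and leaving out pool 3 of soy plus E2 gave 540. Lpo was the 1 gene of the 272 called in every fit that left out 1 of the 12 arrays, so each other call named below was lost without estradiol pool 1. Leaving out casein pools 2 and 3 and soy pool 2, the arrays highest in liver or muscle transcripts, left 1 casein sample. Most of the 272 calls were lost there, that of Lpo among them, while Car2 and Phlda1 kept theirs. Casein pool 1 stayed in, with a mean of 1.41 over 21 skeletal muscle genes.

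The secretory genes, which encode milk proteins and the enzymes and carriers of milk secretion, showed the widest gap. Wap, the whey acidic protein of rodent milk, had values of -3.73, -3.93 and -2.93 in soy pools 1 to 3, against 2.54 in estradiol pool 1 and 2.98 in the mean of estradiol pools 2 and 3. Each soy pool lay more than 5 log2 units below either estradiol sample. The difference was -6.29 ± 0.93 (log2, soy minus estradiol, standard error of the fit), a 78.1-fold lower value with soy (limma adjusted p = 0.018). Without soy and without estradiol, Wap lay at -1.31, -4.42 and -1.22 in the casein pools, a range that holds all soy pools.

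Lpo, lactoperoxidase, an antibacterial enzyme of milk, had values of -0.67, -1.04 and -0.89 in soy pools and 3.32 and 3.85 in estradiol samples. The groups lay far apart relative to their spread, and the difference of -4.45 ± 0.34 had the smallest adjusted p of all genes (limma adjusted p = 0.0031). Casein pools, at -0.79, -0.87 and -0.60, overlapped the soy pools. Fabp3, a fatty acid binding protein of muscle and lactating mammary gland, had -1.65, -1.45 and -2.24 in soy pools and 2.52 and 2.95 in estradiol samples, a difference of -4.52 ± 0.49. Wfdc3, which carries the same type of core domain as Wap, had -1.90, -1.77 and -2.11 in soy pools and 3.16 and 3.38 in estradiol samples, a difference of -5.20 ± 0.62. For both genes the 3 soy pools sat close together and below every estradiol sample.

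Of 21 measured milk and secretory genes 10 were lower with soy at the adjusted threshold and 0 were higher, against 1.43% and 0.485% of all genes, and the list's median difference was -1.72. Besides those above, the sodium phosphate carrier Slc34a2 (-3.70), kappa-casein Csn3 (-2.29), the milk fat globule protein Mfge8 (-1.46), the folate receptor Folr1 (-1.45), alpha-s1-casein Csn1s1 (-1.33) and xanthine oxidoreductase Xdh (-1.21) were called. Naming all 10 was decided after their values were seen. In 19 of the 21 genes every soy pool lay below every estradiol sample, against 19.8% of all genes. Beta-casein Csn2 had -3.63, -4.29 and -2.53 in soy pools and 0.90 and 0.91 in estradiol samples. Yet its difference of -4.39 ± 1.32 missed the threshold (limma adjusted p = 0.11, and 0.0425 with pool number as a block on 12 separate arrays). In the fit with 876 calls its limma adjusted p was 0.017. Casein pool 2, at -5.98 against -0.84 and -0.64 in the other casein pools, was the low array for this gene. Over the list, the mean value was -1.06, -0.98 and -1.17 in soy pools, 1.25 and 1.42 in estradiol samples, and -0.50, -1.46 and -0.15 in casein pools.

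**Figure D1:**
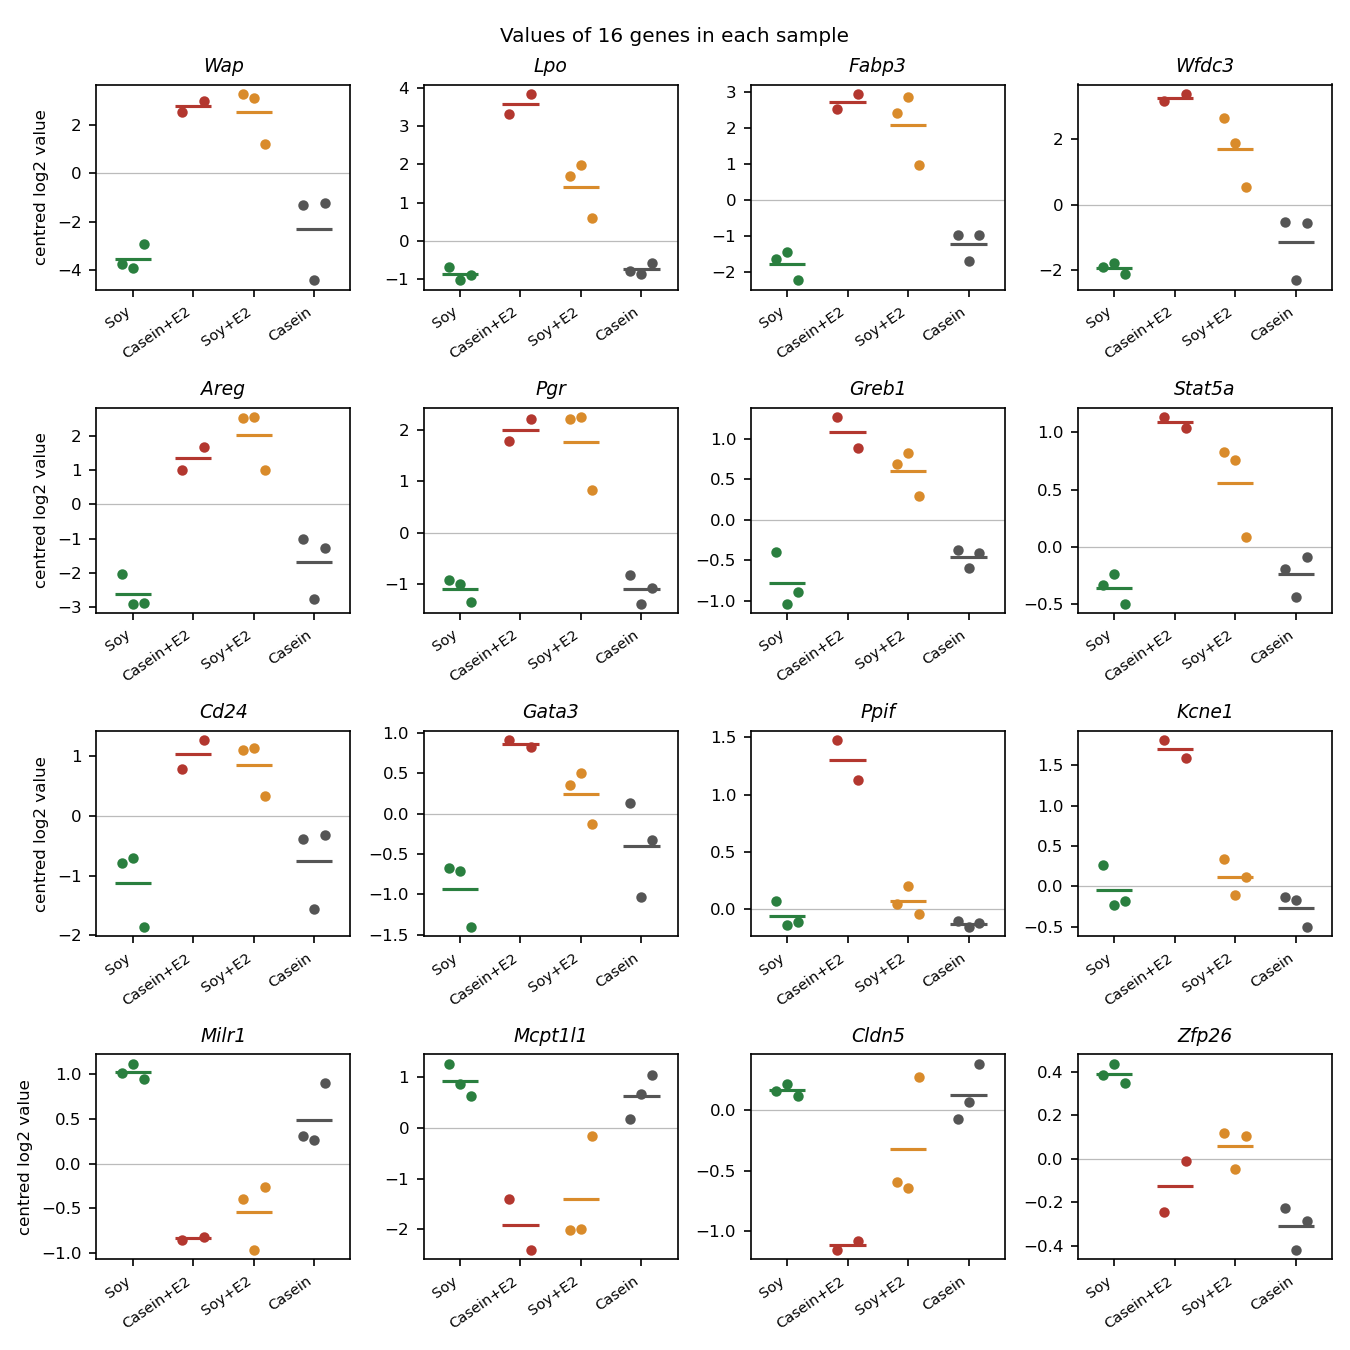
Centred log2 values (y axis, log2 units) of 16 genes by group (x axis: soy, casein plus E2, which is the estradiol group, soy plus E2 and casein). Points are samples, with estradiol pools 2 and 3 as 1 point, and lines are group means. In the panels of Wap, Lpo, Fabp3 and Wfdc3 the soy points lie among or below the casein points and apart from both E2 groups, and in those of Ppif and Kcne1 the estradiol group stands apart from the other 3.

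The other genes among the 15 with the lowest differences had varied roles. Olah, the thioesterase that ends fatty acid chains at medium length in the rodent mammary gland, had a difference of -2.99 ± 0.59. Carbonic anhydrase Car2 had -0.84, -0.67 and -0.95 in soy pools and 2.0 and 2.10 in estradiol samples, a difference of -2.87 ± 0.25 with an adjusted p of 0.0045 by limma. Its soy pools spanned less than 0.3 log2 units. The transferrin receptor Tfrc (-2.82), the BMP-binding protein gene Chrdl2 (-3.83), the proline-rich protein gene Prr27 (-3.42), Clca1 (-3.30), the aminotransferase gene Aadat (-2.91) and Mroh3 (-2.81) completed the set. All of them lay below every estradiol sample in every soy pool, as the rule for naming them required.

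Stat5a, the transcription factor that carries the prolactin signal to milk genes, was lower with soy. It had -0.33, -0.24 and -0.49 in soy pools and 1.13 and 1.04 in estradiol samples (difference -1.44 ± 0.21, limma adjusted p = 0.018). The casein pools, at -0.19, -0.43 and -0.09, overlapped the soy pools. Of 11 measured prolactin and Stat5 pathway genes it was the 1 called, against 1.91% of all genes, and the list's median was -0.34. Elf5, a factor of secretory luminal cells picked out after its value was seen, had -2.33 ± 0.51 and missed the threshold (limma adjusted p = 0.053).

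The promoters of 167 of the 203 lower genes and 56 of the 69 higher genes were in the RefSeq table of rat promoters (GRCr8). Over the 250 bases before the start, the STAT motif TTCNNNGAA, a palindrome that reads the same on both strands apart from its middle, was in 8 promoters of the lower genes (4.79%) and 2 of the higher genes (3.57%), against 6.13% of 11734 promoters of measured genes. The share was thus no higher among called genes. Csn1s1 and Prr27, a pair of genes on chromosome 14 that were both called, are shown because they hold the same 9 letters at different distances, 100 and 25 bases before the start. The 200 bases before each start are given 5′ to 3′ with the motif in capitals.
Csn1s1, chr14:20638850-20639049, minus strand: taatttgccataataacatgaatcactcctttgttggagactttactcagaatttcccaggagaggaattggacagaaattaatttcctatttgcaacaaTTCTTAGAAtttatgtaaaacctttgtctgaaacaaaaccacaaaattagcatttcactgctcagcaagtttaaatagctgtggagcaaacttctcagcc
Prr27, chr14:20527862-20528061, minus strand: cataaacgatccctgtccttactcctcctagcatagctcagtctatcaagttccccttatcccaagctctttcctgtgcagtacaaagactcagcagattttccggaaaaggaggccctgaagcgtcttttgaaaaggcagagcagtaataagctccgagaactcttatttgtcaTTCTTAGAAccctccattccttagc

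Hormone response genes formed the next group. Pgr, the progesterone receptor and a classical estrogen target, had -0.91, -1.0 and -1.33 in soy pools and 1.78 and 2.22 in estradiol samples. No soy pool came within 2 log2 units of an estradiol sample. The difference was -3.08 ± 0.39 (limma adjusted p = 0.0092). Soy minus casein, which shares the soy pools, was 0.01 for Pgr with a 95% interval of -0.77 to 0.78, and estradiol minus casein, which shares the estradiol samples, was 3.09.

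Areg, amphiregulin, had -2.02, -2.89 and -2.88 in soy pools and 1.01 and 1.68 in estradiol samples, a difference of -3.95 ± 0.59 (limma adjusted p = 0.019). The casein pools spanned -2.74 to -1.01 and overlapped the soy pools. Among 13 measured ErbB ligands and receptors Areg was the 1 called gene, against 1.91% of all genes, and the median of that list was -0.30. Greb1, a gene induced by estrogen in breast cells, had -0.40, -1.03 and -0.89 in soy pools and 1.26 and 0.89 in estradiol samples. Its difference of -1.85 ± 0.21 is the mean of a pair of probe sets that disagreed, at -0.27 and -3.43. Ramp3, a partner protein of the calcitonin receptor family, differed by -0.90 ± 0.18.

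Of 30 measured estrogen response genes 5 were lower with soy at the adjusted threshold (Areg, Pgr, Greb1, Gata3, Ramp3) and 0 were higher, against 1.43% and 0.485% of all genes. The other 25 were not called, and the list's median was -0.21. Estrogen receptor Esr1 had -0.02 to 0.17 in soy pools and -0.17 to 0.01 in estradiol samples. Its difference was 0.15, with a 95% interval of -0.22 to 0.51. Esr2 differed by -0.03 (95% interval -0.27 to 0.22) and changed sign under some alternatives. Wnt4 and RANKL (Tnfsf11), signals that carry progesterone's effect to neighbouring cells, differed by -0.41 ± 0.41 and 0.63 ± 0.35, and neither was called. Cyclin D1 gene Ccnd1 differed by -0.86 ± 0.26 (limma adjusted p = 0.11, and 0.028 in the fit with 876 calls).

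The full palindromic estrogen response element, searched on both strands, was in 0 of the 167 and 0 of the 56 called promoters and in 2 of 11734 promoters of measured genes (0.017%), so the window gave no contrast. Pgr and Areg are shown because they carry the hormone response result, and neither holds this element or the STAT motif, so no letter is in capitals.
Pgr, chr8:14354198-14354397, plus strand: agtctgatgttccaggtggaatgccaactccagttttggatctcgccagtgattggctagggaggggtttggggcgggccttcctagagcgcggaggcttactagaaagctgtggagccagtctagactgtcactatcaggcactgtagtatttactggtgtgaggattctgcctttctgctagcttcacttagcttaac
Areg, chr14:17265642-17265841, minus strand: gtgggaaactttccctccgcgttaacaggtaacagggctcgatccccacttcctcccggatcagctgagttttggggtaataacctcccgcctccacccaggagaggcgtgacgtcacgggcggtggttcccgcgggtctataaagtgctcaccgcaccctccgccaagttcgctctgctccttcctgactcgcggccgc

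A few luminal markers were lower with soy, with a wide spread among soy pools. Cd24, a surface glycoprotein of luminal cells, had -0.79, -0.71 and -1.86 in soy pools and 0.79 and 1.26 in estradiol samples, a difference of -2.14 ± 0.45 at the edge of the threshold (limma adjusted p = 0.0496). Gata3, the transcription factor that maintains luminal cells, had -0.68, -0.72 and -1.40 in soy pools and 0.91 and 0.83 in estradiol samples, a difference of -1.80 ± 0.34. In both genes soy pool 3 was the lowest. Of 23 luminal genes 3 were called lower (Cd24, Gata3 and Prom1 at -1.43) and 0 higher, against 1.43% and 0.485% of all genes, with a median of -1.01. Of 20 basal and myoepithelial genes 0 were called, against 1.91% of all genes, with a median of -0.67. The smallest p was at integrin gene Itga6 (-0.54 ± 0.12, limma adjusted p = 0.054). With pool number as a block on 12 separate arrays its limma adjusted p was 0.0252. It did not pass with a block in soy and estradiol alone and estradiol pools 2 and 3 averaged.

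The mean over the luminal list was -0.11, -0.40 and -1.04 in soy pools, 0.35 and 0.40 in estradiol samples, and -0.05, -0.70 and -0.01 in casein pools. For the basal list it was -0.16, -0.44 and -0.83 in soy pools and 0.14 and 0.16 in estradiol samples. Soy pool 3 was thus lowest on both lists. In whole-gland RNA, fewer cells of a type and less RNA per cell cannot be told apart. The part of cell composition in the milk and hormone results was not tested. E-cadherin gene Cdh1 differed by -0.50 ± 0.26 and was not called, with its probe sets at -0.01 and -0.99.

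Of 38 measured cell division genes 37 had a negative difference, as had 7122 of all 14218 genes, and 3 were called lower with soy, against 1.43% of all genes. The kinase gene Melk differed by -1.12 ± 0.21, the cyclin-dependent kinase gene Cdk1 by -1.05 ± 0.22 and the mitotic kinase gene Aurka by -0.92 ± 0.19. Melk had -0.79, -0.86 and -0.40 in soy pools and 0.46 and 0.41 in estradiol samples. The groups thus did not overlap, as in 37.9% of all genes. The proliferation marker Mki67 had -0.77, -0.98 and -0.36 in soy pools and 0.15 and 0.23 in estradiol samples, and its difference of -0.89 ± 0.26 missed the threshold (limma adjusted p = 0.11). The list's median was -0.48, and the mean over the list was -0.44, -0.47 and -0.0043 in soy pools and 0.16 and 0.25 in estradiol samples.

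On the higher side, mast cell genes came first. Mcpt1l1, a mast cell protease gene, had 1.27, 0.87 and 0.62 in soy pools and -1.40 and -2.41 in estradiol samples. The difference of 2.83 ± 0.54 was the largest called in this direction, a 7.1-fold higher value with soy (limma adjusted p = 0.041). Milr1, an inhibitory receptor of mast cells, had 1.01, 1.11 and 0.94 in soy pools and -0.85 and -0.82 in estradiol samples. Both groups were tight, and the difference was 1.86 ± 0.23 (limma adjusted p = 0.0089). The casein pools, at 0.30, 0.26 and 0.90, lay below every soy pool for Milr1, and soy minus casein was 0.53 with an adjusted p of 0.45 by limma.

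Hdc, the enzyme that makes histamine, had 0.91, 0.61 and 0.06 in soy pools and -1.01 and -0.91 in estradiol samples, a difference of 1.49 ± 0.31. Of 18 measured mast cell genes 3 were called higher, against 0.485% of all genes, and 0 lower, with a median of 0.76. In 12 of the 18 every soy pool lay above every estradiol sample, against 18.1% of all genes. The mean over the list was 0.51, 0.50 and 0.35 in soy pools, -0.34 and -0.67 in estradiol samples, and 0.14, 0.39 and 0.50 in casein pools. Soy and casein pools overlapped on this mean, and estradiol samples lay below both.

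Endothelial and vessel genes were next. Cldn5, the tight junction protein of endothelium, had 0.16, 0.22 and 0.12 in soy pools and -1.15 and -1.08 in estradiol samples, a difference of 1.28 ± 0.25 (limma adjusted p = 0.041). The soy pools lay close together and apart from both estradiol samples. It was the 1 called gene of 17 endothelial genes, against 0.485% of all genes called higher, and the list's median was 0.54. In 14 of the 17 the soy pools lay above both estradiol samples, against 18.1% of all genes. Among the 15 highest genes, Sox7, an endothelial transcription factor, differed by 1.25 ± 0.27, and Rgs5, a marker of pericytes, by 1.26 ± 0.26. Of 37 extracellular matrix genes 1 was called, against 1.91% of all genes, the collagen VI chain gene Col6a6, with 0.43, 0.29 and -0.07 in soy pools and -1.44 and -1.83 in estradiol samples (1.85 ± 0.33). That list's median was 0.48.

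The remaining genes among the 15 highest had varied roles. The carboxypeptidase family gene Cpxm2 (2.0), the protocadherin gene Pcdh20 (1.53), the guanylate-binding protein gene Gbp7 (1.52), the class I histocompatibility gene RT1-T24-3 (1.45), the chemokine scavenger receptor gene Ackr4 (1.44), Mlip (1.32), the retinoic acid receptor gene Rarb (1.26) and the death receptor gene Tnfrsf25 (1.24) were called. Gbp7 had -0.15, 0.58 and 0.72 in soy pools and -1.17 and -1.10 in estradiol samples. Soy pool 1 was the lowest of its group but still above both estradiol samples. Of 17 interferon response genes all 17 had a positive difference, as had 7091 of all 14218 genes, with a median of 0.58. The 1 called was the antiviral gene Rsad2 at 0.89 ± 0.18, against 0.485% of all genes called higher. The promoter of Gbp7 was the 1 with more than 1 STAT motif among called genes, with both copies in capitals here.
Gbp7, chr2:233948689-233948888, plus strand: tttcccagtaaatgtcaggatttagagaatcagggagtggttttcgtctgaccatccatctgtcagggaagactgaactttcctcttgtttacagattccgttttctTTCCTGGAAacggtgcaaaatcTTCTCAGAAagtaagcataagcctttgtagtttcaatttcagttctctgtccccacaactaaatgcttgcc

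**Figure D2:**
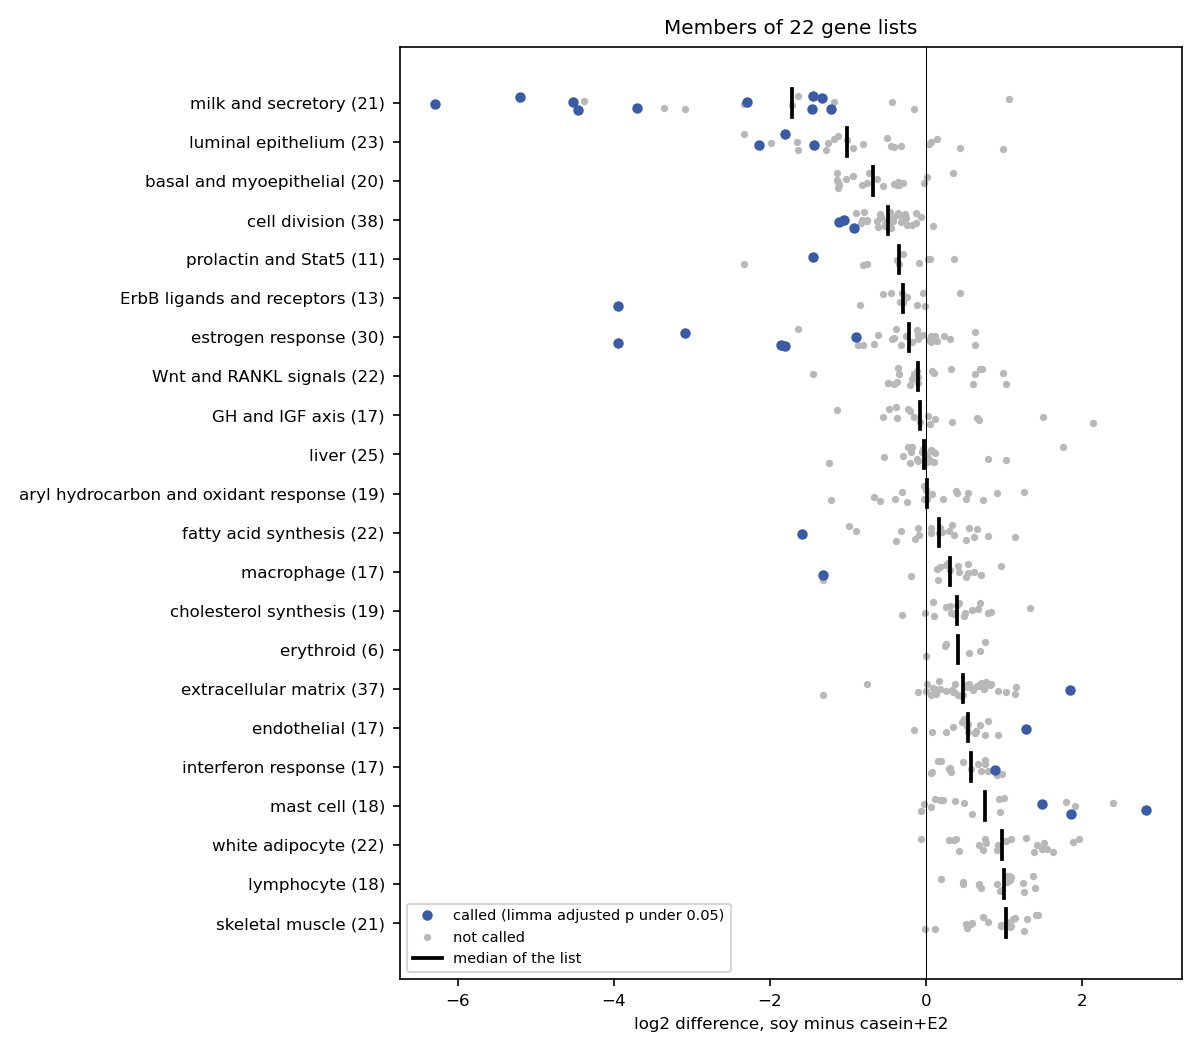
Log2 difference, soy minus casein plus E2 (x axis), of the members of 22 gene lists (y axis, number measured in parentheses). Blue points were called, grey points were not, and black bars are list medians, from -1.72 for milk genes to 1.03 for skeletal muscle genes, a list with 0 called members.

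Among the lists of white adipocyte, fatty acid synthesis and cholesterol synthesis genes, 1 gene was called, against 1.91% of all genes. Of 22 white adipocyte genes 21 had a positive difference, as had 7091 of all 14218 genes, and 0 were called, with a median of 0.97. Adiponectin gene Adipoq had 0.81, 0.14 and 0.53 in soy pools and -1.45 and -0.82 in estradiol samples (1.63 ± 0.44, limma adjusted p = 0.089). The beta-3 adrenergic receptor gene Adrb3 differed by 1.96 ± 0.55 (limma adjusted p = 0.096). In the fit with 876 calls limma adjusted p was 0.034 for Adipoq and 0.017 for Adrb3. Leptin gene Lep had 0.61, 0.19 and 0.91 in soy pools, against -1.84 in estradiol pool 1 and -0.05 in the mean of pools 2 and 3, and was not called. The adipocyte median was 1.69 between soy pool 1 and estradiol pool 1 and 0.37 between pools 2 and 3 of both groups. Of 22 fatty acid synthesis genes the desaturase gene Fads2 was called lower with soy (-1.59 ± 0.31), against 1.43% of all genes. The list's median of 0.17 was -0.13 without estradiol pool 1. Of 19 cholesterol synthesis genes 0 were called, with a median of 0.40.

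Growth factor and signalling lists were short, and 0 calls in them is near the share of 1.91% of all genes. Of 17 growth hormone and IGF genes 0 were called. Igf1 had 0.46, 0.16 and 0.23 in soy pools and -1.0 and -1.43 in estradiol samples. Its difference of 1.5 ± 0.42 missed the threshold (limma adjusted p = 0.099, and 0.0461 with pool number as a block on 12 separate arrays). The IGF binding protein gene Igfbp3 differed by 2.14 ± 0.53 (limma adjusted p = 0.072, and 0.0278 with the block). In the fit with 876 calls limma adjusted p was 0.0065 for Igf1 and 0.0056 for Igfbp3. In both genes the groups did not overlap, as in 37.9% of all genes. Of 22 Wnt and RANKL pathway genes and 19 aryl hydrocarbon and oxidant response genes 0 were called, with medians of -0.11 and 0.01. Their members of smallest p were Sfrp4, an inhibitor of Wnt signals, and the glutathione transferase gene Gsta1. Sfrp4 differed by 1.02 ± 0.29, with its probe sets at 2.12 and -0.07. Gsta1 differed by -1.21 ± 0.28 and passed with pool number as a block on 12 separate arrays (limma adjusted p = 0.0349). In the fit with 876 calls limma adjusted p was 0.018 for Sfrp4 and 0.032 for Gsta1.

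Markers of other cells and tissues moved between pools within both groups. The mean of 18 lymphocyte genes was -1.18 in soy pool 1 against 1.57 and 1.99 in soy pools 2 and 3, and -0.84 in estradiol pool 1 against 0.58 in the mean of pools 2 and 3. The mean of 21 skeletal muscle genes was 3.20 in soy pool 2 and at most 0.42 in the other soy and estradiol samples. No gene of either list was called, against 1.91% of all genes, and the soy and estradiol groups overlapped on both means. Of 17 macrophage genes Cd14, a receptor for bacterial lipopolysaccharide, was called lower with soy (-1.32 ± 0.27), against 1.43% of all genes. The median of that list was 0.31. Of 6 erythroid and 25 liver genes 0 were called, against 1.91% of all genes, with medians of 0.41 and -0.03. The part of these transcripts in the calls was not tested gene by gene.

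**Figure D3:**
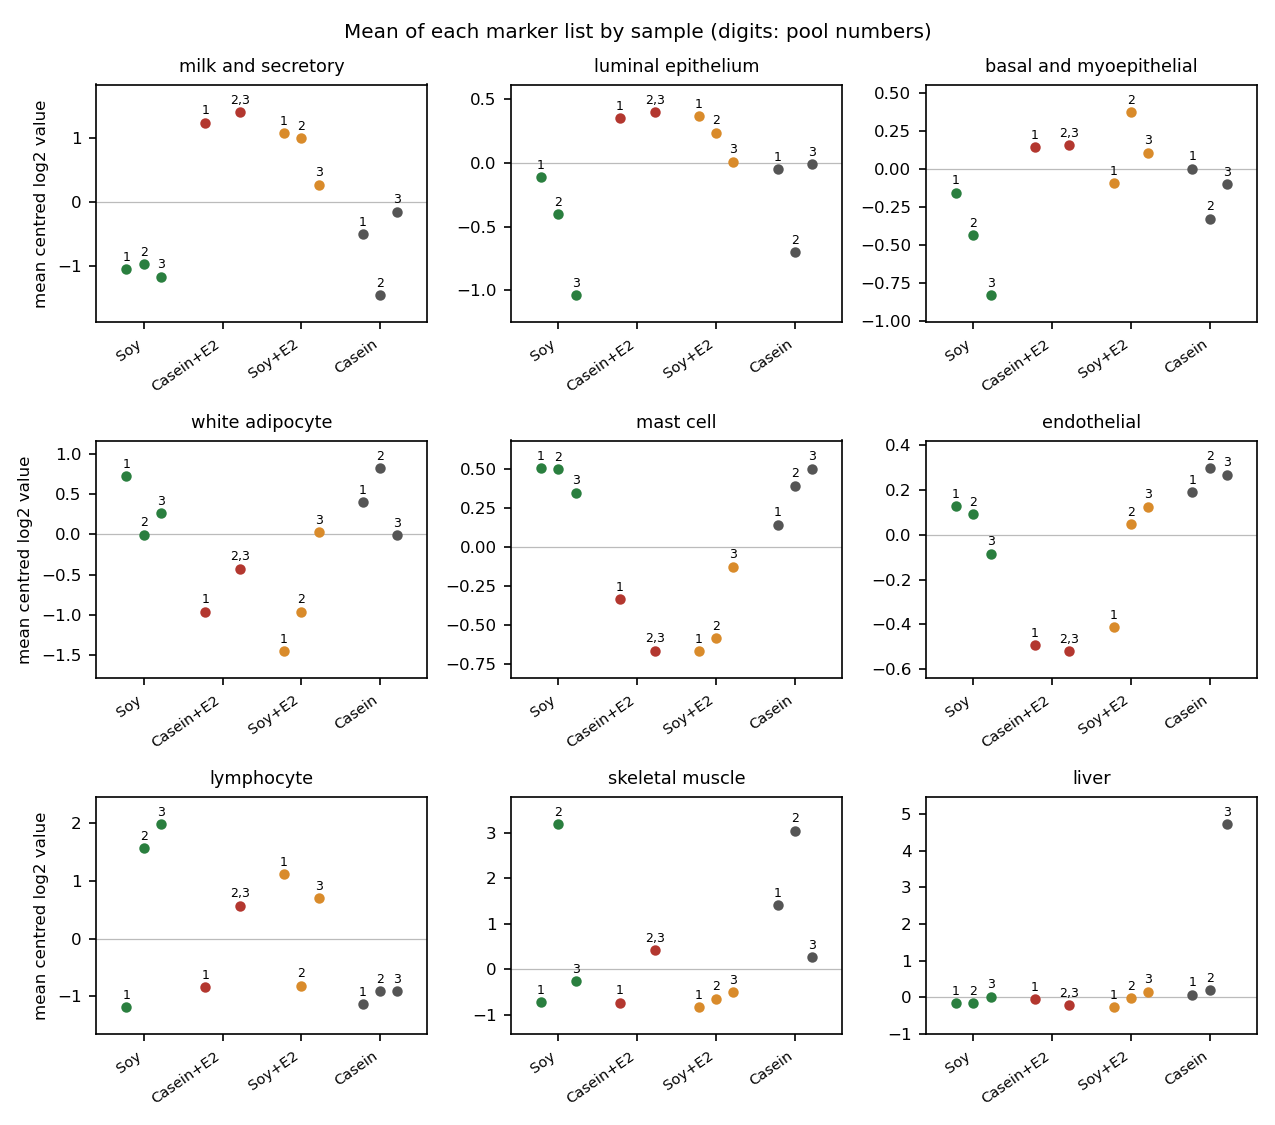
Mean centred log2 value (y axis, log2 units) over the measured members of 9 marker lists by group (x axis), with 1 point per sample and pool numbers beside the points. Soy and casein plus E2 separate on the milk, luminal, basal, adipocyte, mast cell and endothelial panels and overlap on the lymphocyte and skeletal muscle panels, and casein pool 3 stands alone at 4.73 on the liver panel.

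Spike-in transcripts added as hybridisation controls split the arrays the same way in both groups. Soy pool 1 and estradiol pool 1 lay above 0 on the mean of 18 such probe sets, and pools 2 and 3 of both groups lay below. Some named differences were close on both sides of this split. Wap differed by -6.27 between pools 1 and by -6.41 between pools 2 and 3, and Milr1 by 1.86 and 1.85. Lpo (-3.99 and -4.81), Cd24 (-1.57 and -2.54) and Tnfrsf25 (1.55 and 0.96) differed more between the sides, and Tnfsf11 changed sign (-0.11 and 0.92). With the split as a term in the fit 372 genes were called.

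Casein pools took no part in the soy minus estradiol contrast apart from the estimate of the spread. Their values were set beside the soy and estradiol means, as those of ovariectomized, casein-fed rats on vehicle. For 200 of the 203 lower genes (98.5%) the casein mean was nearer to the soy mean than to the estradiol mean, against 62.9% of the 7122 genes with a negative difference. For the 69 higher genes it was 57 (82.6%), against 57.6% of the 7091 genes with a positive difference. Medians of group means over the 203 genes were -0.37 in soy, 0.72 in estradiol and -0.26 in casein. Over the 69 genes they were 0.36 in soy, -0.53 in estradiol and 0.22 in casein. The casein medians thus lay on the soy side of both sets. The genes were picked by the soy and estradiol means, which also set both distances. Picking tends to push the estradiol mean out further, since it rests on fewer samples than the soy mean. Nearness to soy is therefore favoured beforehand, by an amount that was not tested. Shares of all genes do not correct this, since 6821 of the 7122 and 6841 of the 7091 differed by under 2-fold.

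Soy minus casein gave 0 called genes of 14218 by limma (1472 at an unadjusted p under 0.05), and estradiol minus casein gave 346 (2.43%), of which 211 were higher (1.48%) and 135 lower (0.95%). The 2 comparisons share the casein pools. Among the 272 genes, 47 had an unadjusted p under 0.05 for soy minus casein. Intervals for single genes were wide for some and narrow for others. For Wap soy minus casein was -1.22 (95% interval -3.08 to 0.65), for Lpo -0.12 (-0.81 to 0.57), for Areg -0.93 (-2.12 to 0.27) and for Stat5a -0.12 (-0.53 to 0.30). Estradiol minus casein for the same genes was 5.07, 4.34, 3.02 and 1.32. The count for soy minus casein was 327 without soy pool 1, 0 without any other single array and 1588 with array weights. The 346 calls of estradiol minus casein became 5 without estradiol pool 1, 12, 17 and 157 without casein pools 2, 1 and 3, 68 and 230 without soy pools 2 and 3, and 140 and 590 without pools 2 and 3 of soy plus E2. Without the arrays high in liver or muscle transcripts the count was 0.

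Soy plus E2 against casein gave the same genes a reading on 6 other arrays, which enter the soy minus estradiol comparison only through the shared estimate of the spread. An unadjusted p under 0.05 was reached there by 20.3% of all genes. Genes called in soy minus estradiol tend to have a small shared spread, which lowers their p here too. Their share under 0.05 is therefore favoured beforehand, by an amount that was not tested. If they add up, an effect of E2 alone enters the comparisons with opposite signs and an effect of diet alone with the same sign. Where both act the larger sets this, and an E2 effect that depends on diet can change it. The part of each was not tested. Of the 203 lower genes 195 had a positive difference in soy plus E2 minus casein, and 149 of them (73.4%) had one with an unadjusted p under 0.05, against 17.2% of all genes with a negative soy minus estradiol difference. Of the 69 higher genes 62 had the opposite sign, and for 46 (66.7%) with an unadjusted p under 0.05, against 17.8%. Median differences of the 203 genes were -1.12 in soy minus estradiol and 0.60 in soy plus E2 minus casein, and of the 69 genes 0.89 and -0.42. Across all 14218 genes Pearson's r between both differences was -0.51, a description only, since genes are not independent and all arrays share the platform.

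At the adjusted threshold 44 genes were called in soy plus E2 minus casein (0.309%), 25 higher (0.176%) and 19 lower (0.134%). There were 11 called in both comparisons, which is 4.04% of the 272 and 25% of the 44. All 11 had opposite signs. They were Fabp3, Lpo, Areg, Chrdl2, Pgr, Phlda1, the virus receptor gene Cxadr, the cytokine gene Il18, Shc4, Zcchc10 and the ceramide synthase gene Cers6, listed in full after the overlap was seen. Areg had 2.52, 2.54 and 1.01 in soy plus E2 pools and -1.01, -2.74 and -1.26 in casein pools (3.70 ± 0.53, limma adjusted p = 0.030). Pgr had 2.21, 2.24 and 0.82 in soy plus E2 pools and -0.82, -1.37 and -1.07 in casein pools (2.85 ± 0.35). Soy plus E2 pool 3 was the lowest of its group for both genes. The overlap was 254 genes without that pool and between 0 and 13 without any other single array.

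**Figure D4:**
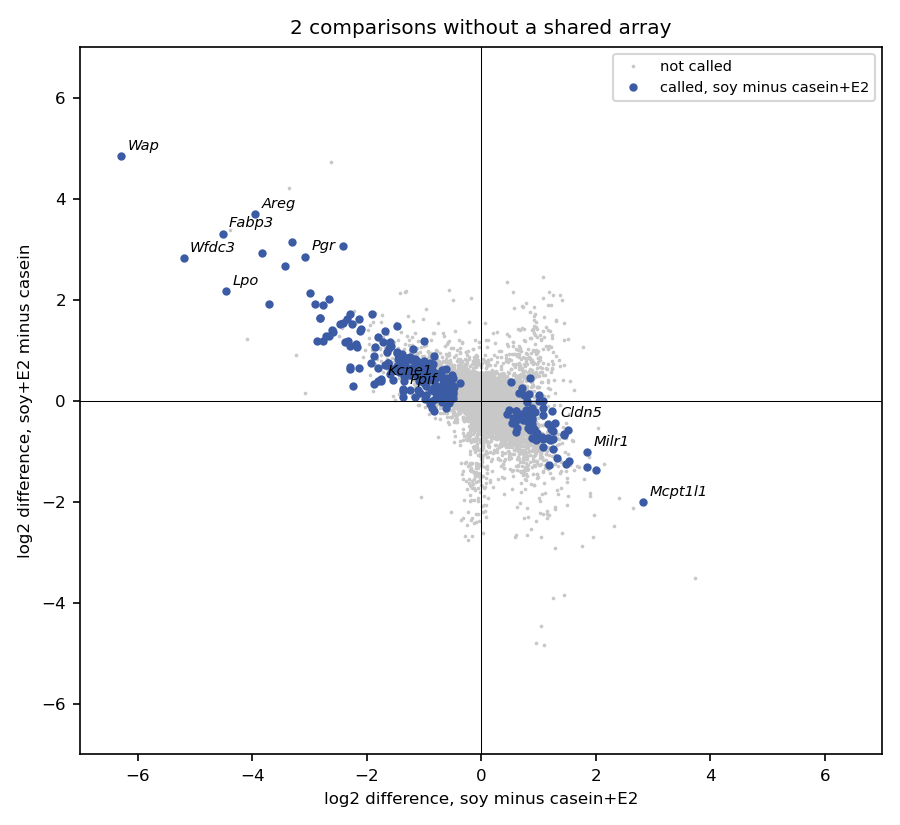
Log2 difference of soy minus casein plus E2 (x axis) against that of soy plus E2 minus casein (y axis) for 14218 genes, from different arrays with a shared estimate of the spread. Of the 272 called genes (blue) 257 lie at the upper left or lower right, where the signs are opposite, and 15 do not.

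Several genes had a wide gap between soy and estradiol and a narrow one between soy plus E2 and casein. Ppif, the mitochondrial pore regulator cyclophilin D, had 0.07, -0.14 and -0.12 in soy pools and 1.47 and 1.13 in estradiol samples. The difference was -1.36 ± 0.12 (limma adjusted p = 0.0045), against 0.19 ± 0.11 in soy plus E2 minus casein (limma adjusted p = 0.35). Soy plus E2 pools, at 0.05, 0.20 and -0.05, stood with soy and not with estradiol. Kcne1, a potassium channel subunit, had 0.26, -0.23 and -0.18 in soy pools and 1.81 and 1.59 in estradiol samples, a difference of -1.75 ± 0.19, against 0.38 ± 0.17 in soy plus E2 minus casein. The E2 effect in soy-fed minus that in casein-fed rats was -1.30 ± 0.17 for Ppif and -1.80 ± 0.26 for Kcne1, and neither passed (limma adjusted p = 0.14 and 0.15). Over all genes that difference gave 0 calls by limma, with 929 at an unadjusted p under 0.05.

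Further genes of small p with opposite signs were the nitric oxide pathway enzyme gene Ddah1 (-2.14 ± 0.22, against 0.65 ± 0.20), Phlda1 (-2.27 ± 0.22, against 1.51 ± 0.20), the hyaluronan link protein gene Hapln3 (-1.68 ± 0.19, against 0.71 ± 0.17), Folr1 (-1.45 ± 0.16, against 0.62 ± 0.15) and Fibin (-1.43 ± 0.15, against 0.56 ± 0.14), each given as soy minus estradiol and then soy plus E2 minus casein. Phlda1 had -0.96, -1.36 and -1.09 in soy pools and 1.15 and 1.11 in estradiol samples. It was called in both comparisons, and its soy and casein pools overlapped.

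Only 2 called genes had the same sign in both comparisons with an unadjusted p under 0.05 in the second (0.735% of the 272, against 2.83% of all genes). Zfp26, a zinc finger gene, had 0.39, 0.44 and 0.35 in soy pools and -0.24 and -0.01 in estradiol samples (0.52 ± 0.10, limma adjusted p = 0.045), and soy plus E2 minus casein was 0.37 ± 0.09. Its order of group means was soy, soy plus E2, estradiol and casein. Mthfd1l, a mitochondrial folate enzyme gene, had 0.21, 0.52 and 0.93 in soy pools and -0.40 and -0.19 in estradiol samples (0.85 ± 0.18), and soy plus E2 minus casein was 0.44 ± 0.16. Soy minus casein was 0.70 for Zfp26 and 0.87 for Mthfd1l, and neither passed over all genes. In the fit with 876 calls neither passed for soy minus estradiol (limma adjusted p = 0.071 and 0.059).

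**Figure D5:**
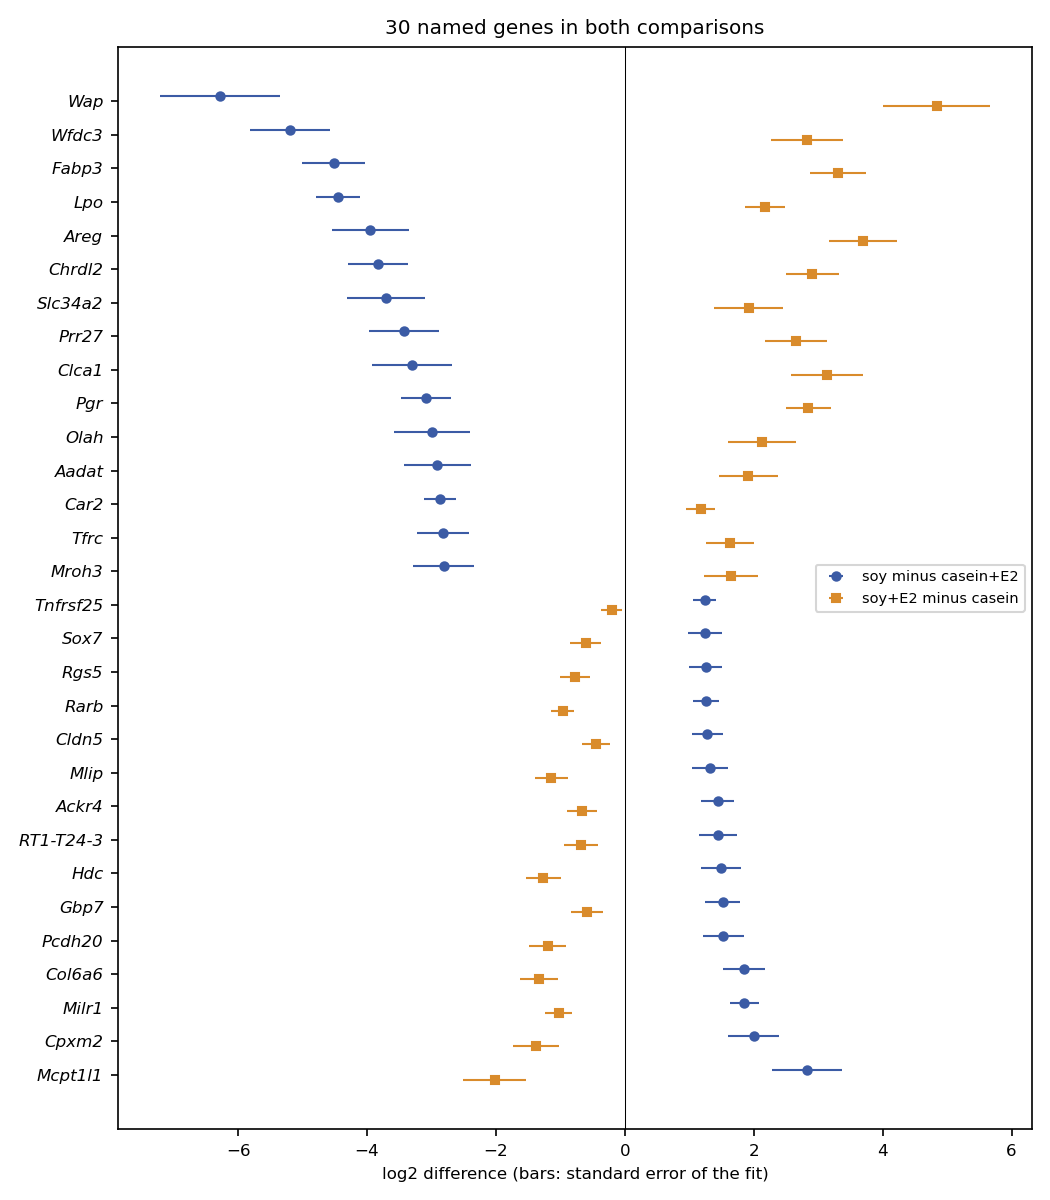
Log2 differences (x axis, with standard errors of the fit as bars) of the 15 lowest and 15 highest called genes (y axis) in soy minus casein plus E2 (blue circles) and soy plus E2 minus casein (orange squares). The orange squares lie on the other side of 0 from the blue circles for all 30 genes, from 4.84 for Wap to -2.02 for Mcpt1l1.

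Just inside the threshold lay Tceal9 (-0.91), Mylip (-0.50) and Lrrc42 (-0.36), and just outside lay the lipase gene Cel (-1.17), Smoc2 (-0.73) and Poc1a (-0.55). Size alone did not set the order, since Cel differed by more than any of the 3 inside.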

How the data were processed

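RNA of abdominal mammary glands (8 µg per pool) was labelled and measured on Affymetrix rat arrays, per the labels' protocols. The authors deposited 1 table of log2 values for 31099 probe sets on 12 arrays. GCOS, Affymetrix software, is credited to the submitters' processing notes, with no version. Not given in the sources used here were summarisation, normalization and log base. Base 2 was read from the range, and every fold rests on it. Probe sets came centred on their medians, so the planned filter on levels could not be used. Array medians lay between -0.0246 and 0.0112.

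Names came from the platform annotation (20832 with 1 gene, 436 with several, 9780 unnamed here, 57 controls), and 20764 matched the GRCr8 gene table by identifier. Averaging over the probe sets of a gene gave 14218 genes, 4526 of them with several. Groups and pool numbers came from the titles. Estradiol pools 2 and 3 were averaged. Deviations of same-numbered soy and estradiol pools from their group means correlated at 0.22 to 0.46 in all 3 pairs, so their numbers were taken to pair them, from the data alone, since no label gives a shared batch. The near-identical estradiol pools make these 3 values dependent. Of the 15 same-numbered pairs of other groups 2 exceeded 0.1, so those were not paired. The fit had 4 group means and 11 samples (7 residual degrees of freedom, limma 3.58.1 with eBayes and no trend, R 4.3.3), two-sided, with Benjamini-Hochberg adjustment over all genes. An exact permutation test of 3 against 2 samples cannot pass 0.05, since its smallest p is 0.1. The code was tested on simulated data. Errors are standard errors of the fit, and intervals are at 95% and unadjusted.

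The members, the 22 gene lists (435 genes measured of 482 symbols) and the tests were chosen with earlier results of these data known. Genes named were the 15 highest and 15 lowest called genes with non-overlapping groups and a gene symbol other than a locus number, 21 fixed genes, up to 4 called members of each list or its member of smallest p, and up to 10 genes of smallest p of each sign in soy plus E2 minus casein. Promoters were taken from RefSeq (GRCr8). Alternatives were 12 separate arrays, quantile normalization, median centring, every probe set, the probe set of largest SD, only the groups of a contrast, array weights, a 1.5-fold minimum, pool number as a block, the spike-in split, a filter on SD and leaving out each array. Leaving out the arrays highest in liver or muscle transcripts and a block within soy and estradiol alone were chosen after seeing the data.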

Additional observations from a re-analysis of the deposited data

How the results depend on the processing

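For soy minus estradiol the 272 calls became 1263 with 12 separate arrays, 540 with quantile normalization, 176 with the probe set of largest SD, 2349 with array weights, 7 with a 1.5-fold minimum and 3 without the liver and muscle arrays. They stayed within 1.5 times with median centring (232), every probe set (195), only the groups compared (261), the spike-in term (372) and the SD filter (344), and ranged from 2 to 540 without 1 array. In the same order of settings, soy plus E2 minus casein (44 calls) gave 173, 254, 25, 1176, 0 and 2, besides 26 with every probe set, 1 with only the groups compared and 9 with the spike-in term, and 0 to 734 without 1 array. Estradiol minus casein (346) gave 1369 with 12 arrays, 628 with quantile normalization, 1408 with array weights, 3 with a 1.5-fold minimum, 200 with only the groups compared and 0 without the liver and muscle arrays, and 5 to 590 without 1 array. Soy minus casein (0) gave 1588 with array weights and 0 to 327 without 1 array. The 11 genes of both comparisons became 86, 87, 430, 0 and 0 under 12 arrays, quantile normalization, array weights, the 1.5-fold minimum and the liver and muscle setting, 0 with only the groups compared, 7 with the spike-in term, 17 with the SD filter and 0 to 254 without 1 array. With 12 separate arrays the near-identical estradiol pair counts as 2 samples. The cause of the other shifts was not tested. With pool number as a block on 12 arrays the counts were 744, 14, 821 and 6 for soy minus estradiol, soy plus E2 minus casein, estradiol minus casein and both. Apart from the calls given in the report and Msmo1 (0.75, limma adjusted p = 0.0349), that block changed no call of a named gene in soy minus estradiol. With the block in a fit of soy and estradiol alone, chosen after seeing the data, soy minus estradiol gave 1677 calls on 6 arrays (269 of the 272) and 876 with estradiol pools 2 and 3 averaged (235 of the 272), both on 2 residual degrees of freedom. In the fit with 876 calls Ccnd1, Adipoq, Adrb3 and Sfrp4 also passed, and Itga6, Msmo1, Mlip, Zfp26 and Mthfd1l did not. Of the named genes, Wnt4 ranged from -0.76 to 0.0375 without 1 array, with the sign turned without soy pool 3. Esr2 ranged from -0.0713 to 0.0636, with the sign turned without estradiol pool 1 (0.0636) and without soy pool 1 (0.0238), and was 0.0018 with 12 arrays, with either block on separate arrays, and 0.0011 with quantile normalization. Over all settings the named genes lost their call 334 times and gained one 73 times, and 14 list medians moved by more than the spread between pools while 470 did not. Centred values give no signal over background, so what dim probe sets limit could not be read.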

Other observations

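Solute carriers, grouped after their values were seen, gave 8 genes lower with soy and 3 higher among 289 measured (3.81%, against 1.91% of all genes), with a median difference of -0.04. Besides Slc34a2, the lower ones included the zinc carrier gene Slc30a4 (-1.61 ± 0.29), which exports zinc into vesicles, and the glucose carrier gene Slc2a1 (-0.53 ± 0.11). Slc30a4 had -0.50, -0.45 and -0.81 in soy pools and 0.92 and 1.13 in estradiol samples, so the groups lay more than 1 log2 unit apart. Slc2a3, another glucose carrier gene, was higher with soy (0.54 ± 0.09). Of 23 keratin genes 0 were called by limma, against 1.91% of all genes.

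Other called genes, of varied roles and also picked after their values were seen, were Icam2, Gucy1b1, Nrp1, Ocln, Rab25 and Vdr. Icam2, an adhesion molecule of endothelium, had 0.56, 0.36 and 0.77 in soy pools and -0.51 and -0.53 in estradiol samples (1.08 ± 0.13, limma adjusted p = 0.0089). The guanylate cyclase subunit gene Gucy1b1, a nitric oxide sensor, differed by 1.20 ± 0.24, and the semaphorin and VEGF co-receptor gene Nrp1 by 0.82 ± 0.16. The tight junction gene Ocln (-1.27 ± 0.25) and the epithelial trafficking gene Rab25 (-1.37 ± 0.27) were lower with soy. The vitamin D receptor gene Vdr differed by -0.96 ± 0.20.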
